A study of Mus musculus with 6 samples.

Results

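The transcripts described here belong to 42 interferon response and antigen processing genes of the mouse: receptor chains, transcription factors, sensors of viral RNA, antiviral effectors, interferon-induced GTPases, the peptide-loading and immunoproteasome genes, and other genes that interferons induce. They were chosen by name. Of the 42, 41 had a probe on the array, 39 were tested because both arrays of 1 or more groups showed them well above background, and 38 were above background on all 6 arrays, out of 17185 genes tested in all. Xaf1, a pro-apoptotic factor induced by interferon, had no probe under its name. RNA came from primary murine embryonic fibroblasts, which are connective tissue cells cultured from embryos, kept in DMEM with 10% FCS. The groups were cells left untreated (0 h), cells after 2 h in 1 mM hydrogen peroxide (H2O2, an oxidant) and cells after 4 h in 1 mM H2O2, with 2 one-colour arrays each, given as independent experiments. No genotype, strain or embryonic age is given in the sources used here. No cells were kept untreated for 2 h or 4 h, so time in culture and H2O2 cannot be told apart.

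Type I interferons are secreted proteins that bind a receptor of the chains Ifnar1 and Ifnar2, which passes the signal to STAT proteins. Stat2 joins another STAT and Irf9 in a complex that binds interferon-stimulated response elements in the promoters of its target genes, and Irf1, induced through STAT sites, binds like elements. Fibroblasts are a classical source and target of these interferons, and also keep a low resting expression of many of the target genes.

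At 2 h, 17 of the 39 tested members fell and 3 rose against untreated cells, and 19 were not called. With the replicate number, which is also the slide, as a block, 20 fell and 7 rose, beside 19.2% and 33.6% of all genes. Without the block 15.3% of all 17185 genes fell and 23.8% rose at 2 h. The members with the largest falls were Parp14, Stat2, Trim21 and Irf1, each at least 2.31-fold lower in cells after 2 h in H2O2. At 4 h, 14 members rose and 11 fell, beside 24.7% and 18.5% of all genes, and the largest rises were those of Rsad2, Mx2, Cxcl10 and Tap1. The falls at 4 h numbered 3 to 7 when any 1 of the 6 arrays was left out, and the rises 9 without either untreated array. Between 2 h and 4 h, 18 members rose and 2 fell, beside 13.4% and 16.5% of all genes. With the replicate block 19 rose and 4 fell, beside 16.6% and 23.4% of all genes. A gene rose or fell where limma's p-value, adjusted over all genes by the Benjamini-Hochberg method, was under 0.05.

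The members' median log2 change was -0.36 at 2 h, while that of all genes was 0.12. At 4 h it was 0.13, beside 0.07 for all genes, and between 2 h and 4 h it was 0.24, beside -0.08. On the plot of members among all genes, the members lie to the left of the bulk of genes at 2 h and to the right between the times. Within the slides, which each held 1 array of every group, the members' median at 2 h was -0.33 on slide 1 and -0.29 on slide 2, and between 2 h and 4 h it was 0.28 and 0.22. The median at 4 h was 0.12 and 0.06. Both 2 h arrays were below both untreated arrays for 25 of the 39 members, beside 27.4% of all genes, and both 4 h arrays were above both 2 h arrays for 21, beside 25.9%. The 3 comparisons share arrays, so each is given with its own values, and members are grouped by their calls to order the description.

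The split of calls moved with the scaling between arrays. With spiked-in control probes as the scale, 30 members fell and 0 rose at 2 h (limma, with 0 rises at an unadjusted p under 0.05 too). At 4 h 17 fell and 8 rose. Of all genes 53.5% fell and 8.5% rose at 2 h under this scale, and 36% and 11.6% at 4 h. With no scaling the counts were 25 and 0 at 2 h (1 rise at an unadjusted limma p under 0.05) and 15 and 7 at 4 h. The shares of all genes were 33.2% and 8.9%, then 31.8% and 10.3%. With median centring the counts were 21 and 1, then 12 and 9, and the shares 22.2% and 10.7%, then 23.9% and 13.3%. With normexp background correction and the 75th percentile the counts were 7 and 0 (4 rises unadjusted), then 1 and 9. The shares were 4.32% and 4.73%, then 4.95% and 8.81%. With normexp and quantile normalization the counts were 19 and 3, then 12 and 12. Of all genes 20% fell and 15.8% rose at 2 h there, and 23.5% and 19.5% at 4 h. The members' median minus that of all genes at 2 h was -0.47 with spike-in scaling and under the scaling used here. That equality is fixed in advance, as each of these scalings subtracts 1 value per array. With quantile normalization the difference was -0.39, and with normexp it was -0.28 under both the 75th percentile and quantile normalization. Spike-in scaling put the median of all genes at -0.33 at 2 h, against 0.12 under the scaling used here. Changes are therefore given relative to the 75th percentile of each array.

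**Figure D1:**
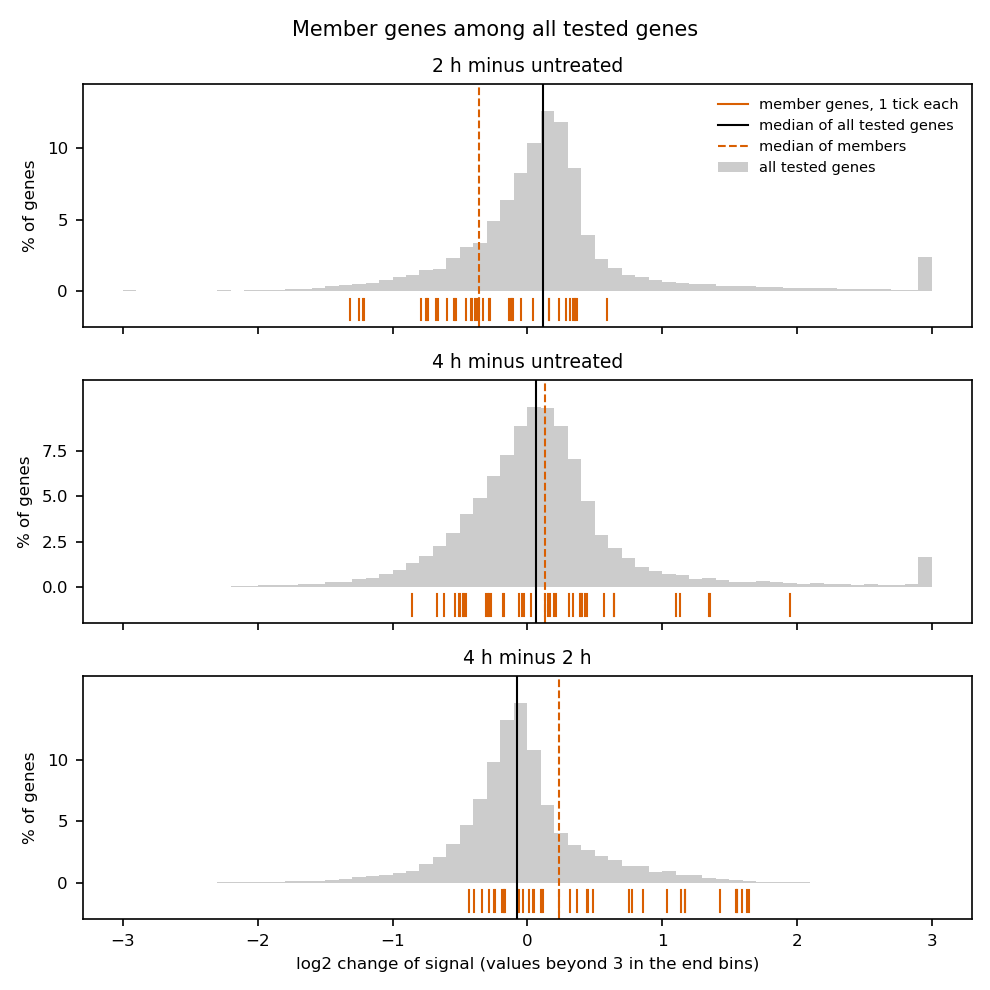
Share of the 17185 tested genes (grey bars, % of genes) by log2 change, with 1 orange tick for each of the 39 tested members, for 2 h against untreated, 4 h against untreated and 4 h against 2 h. The members' median (dashed) lies at -0.36, 0.13 and 0.24, and the median of all genes (solid) at 0.12, 0.07 and -0.08.

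The labelled cell type was checked with markers. All 10 fibroblast markers were above background on every array, with a summed signal of 889 and 849 in untreated cells, 1060 and 1050 at 2 h and 1030 and 985 at 4 h, in multiples of the 75th percentile of the array. Of these markers 5 rose and 1 fell at 2 h, beside 23.8% and 15.3% of all genes. At 4 h 4 of them rose and 1 fell, beside 24.7% and 18.5% of all genes. The one that fell was Pdgfra, at -1.08 at 2 h and -0.70 at 4 h (limma, adjusted p = 0.0011 and 0.00359). Of 10 blood and immune cell markers 5 were above background on all arrays, with sums of 2.56 and 2.45, then 3.65 and 3.46, then 3.48 and 3.37, and 5 rose at each time. The 5 were Cd68 and Csf1r, at 0.55 and 0.47 at 2 h, Itgam, above background on 1 of the 2 untreated arrays, and Itgax and Flt3, above background on neither untreated array and on both arrays at each later time. The signal of Itgax was 0.0063 and 0.0043 in untreated cells and 0.532 and 0.559 at 2 h. For Flt3 it was 0.0126 and 0.0106, then 0.079 and 0.078, and for Itgam 0.0217 and 0.0234, then 0.0566 and 0.0486. These changes are larger than those of Cd68 and Csf1r, but less exact. Ptprc, the pan-leukocyte marker, had -0.06 at 2 h and was not called. Cdh5 and Tie1, of the endothelial markers, and Epcam, of the epithelial markers, were above background on no array. Kdr and Tek, also endothelial markers, were above background on all 6 arrays and not called at 2 h or 4 h. In untreated cells Kdr had 0.255 and 0.291 and Tek 0.096 and 0.098. Of the tested endothelial markers 4 of 6 rose at 2 h (Robo4, Cldn5, Pecam1 and Vwf, the last by 1.81) and 3 at 4 h, and Robo4 and Pecam1 were above background on neither untreated array. Robo4 had 0.00826 and 0.00794 in untreated cells and 0.1065 and 0.1118 at 2 h, and Pecam1 had 0.00798 and 0.00743, then 0.0471 and 0.0438. Cldn5, above background on 1 of the 2 untreated arrays, had 0.00654 and 0.0191, then 0.2132 and 0.1087. Of the tested epithelial markers 3 of 3 rose at both times (Krt8 by 0.44 and Krt18 by 0.59 at 2 h, and Cdh1, above background on neither untreated array). Cdh1 had 0.0167 and 0.0096 in untreated cells and 0.0823 and 0.0808 at 2 h. The epithelial sum was 1.46 and 1.41 in untreated cells, 2.24 and 2.09 at 2 h and 2.45 and 2.17 at 4 h, from 4 markers of which 2 were above background on all arrays. The endothelial sum was 0.473 and 0.54 in untreated cells, 1.1 and 0.987 at 2 h and 0.959 and 0.981 at 4 h, from 8 markers of which 3 were above background on all arrays. The part of these marker changes in the members' changes was not tested, and in bulk RNA fewer cells of a type and less RNA per cell cannot be told apart. The share of spots above background was 57.3% to 68.0% per array, no spot was saturated, and arrays of 1 group correlated at 0.992 to 0.994 across genes. Each group stood at the same position on both slides, so position and time cannot be told apart. The labels do not say whether independent experiments were separate embryos or cultures, so p-values measure the spread between these arrays.

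Promoters are shown first, as the stretches of sequence on which the complex and its relatives are known to act. A promoter window of 250 bases before to 50 bases after the transcription start was found for 34 of the members in the RefSeq table of the build GRCm38.p6, which gave 38 windows. The core of the interferon-stimulated response element, GAAA and GAAA parted by any 2 bases, and the STAT site, TTC and GAA parted by any 3 bases, were searched on both strands. The response element core was in 16 of the 34 members' promoters (47.1% of these genes), beside 3.99% of 27025 genes, and the STAT site in 12 (35.3%), beside 9.55%. By window, the shares were 42.1% of member windows beside 3.44% of all 32851 windows for the core, and 31.6% beside 8.3% for the STAT site. In the following windows, 5′ to 3′ on the strand of the gene, capitals mark the response element core, and in Irf1 the STAT site. STAT sites also begin 45 bases before the start in Igtp and 136 in Bst2, within the windows shown, and are not marked there. They come from members that rose between 2 h and 4 h (Stat2, Irf1, Ifit1, Ifit3, Rsad2, Cxcl10, Igtp) and, for contrast, from B2m and Bst2, whose brightest probes were not called between those times. Another B2m probe did rise between them, by 1.02 (adjusted p = 0.00246). A match on the other strand reads TTTC and TTTC on the strand shown.
Stat2 (chr10:128270256-128270305, plus strand): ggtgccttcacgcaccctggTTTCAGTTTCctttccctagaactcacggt
Irf1 (STAT site, chr11:53769904-53769952, plus strand): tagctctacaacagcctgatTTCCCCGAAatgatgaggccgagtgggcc
Ifit1 (chr19:34640765-34640833, plus strand): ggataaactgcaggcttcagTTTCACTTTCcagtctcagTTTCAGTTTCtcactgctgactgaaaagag
Ifit3 (chr19:34583353-34583436, plus strand): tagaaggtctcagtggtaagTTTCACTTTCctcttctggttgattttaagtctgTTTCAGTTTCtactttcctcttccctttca
Rsad2 (chr12:26456543-26456592, minus strand): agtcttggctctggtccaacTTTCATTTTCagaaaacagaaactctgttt
Cxcl10 (chr5:92349073-92349122, minus strand): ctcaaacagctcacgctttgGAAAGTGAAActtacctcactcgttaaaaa
Igtp (chr11:58199502-58199551, plus strand): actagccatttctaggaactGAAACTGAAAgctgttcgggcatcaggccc
B2m (chr2:122147528-122147577, plus strand): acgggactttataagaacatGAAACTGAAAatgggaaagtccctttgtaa
Bst2 (chr8:71537567-71537622, minus strand): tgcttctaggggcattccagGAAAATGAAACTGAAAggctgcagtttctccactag
The B2m and Igtp windows hold the same core letters, and the match of Stat2 reads like the second matches of Ifit1 and Ifit3. The first match began 104 bases before the start in Ifit1, 156 in Ifit3, 120 in Rsad2, 213 in Cxcl10, 222 in Stat2, 34 in Igtp, 139 in B2m and 130 in Bst2, and the STAT site of Irf1 began 90 bases before it. Of the members with a promoter that rose between 2 h and 4 h, 9 of 14 held the core, and of the other tested members 7 of 19. For the fall at 2 h the counts were 8 of 14 and 8 of 19. The STAT site was in 3 of 14 members that rose between 2 h and 4 h and in 9 of the other 19. These are counts of letters in a window, given with no test, and a window without a match says only that the letters are not in it.

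**Figure D2:**
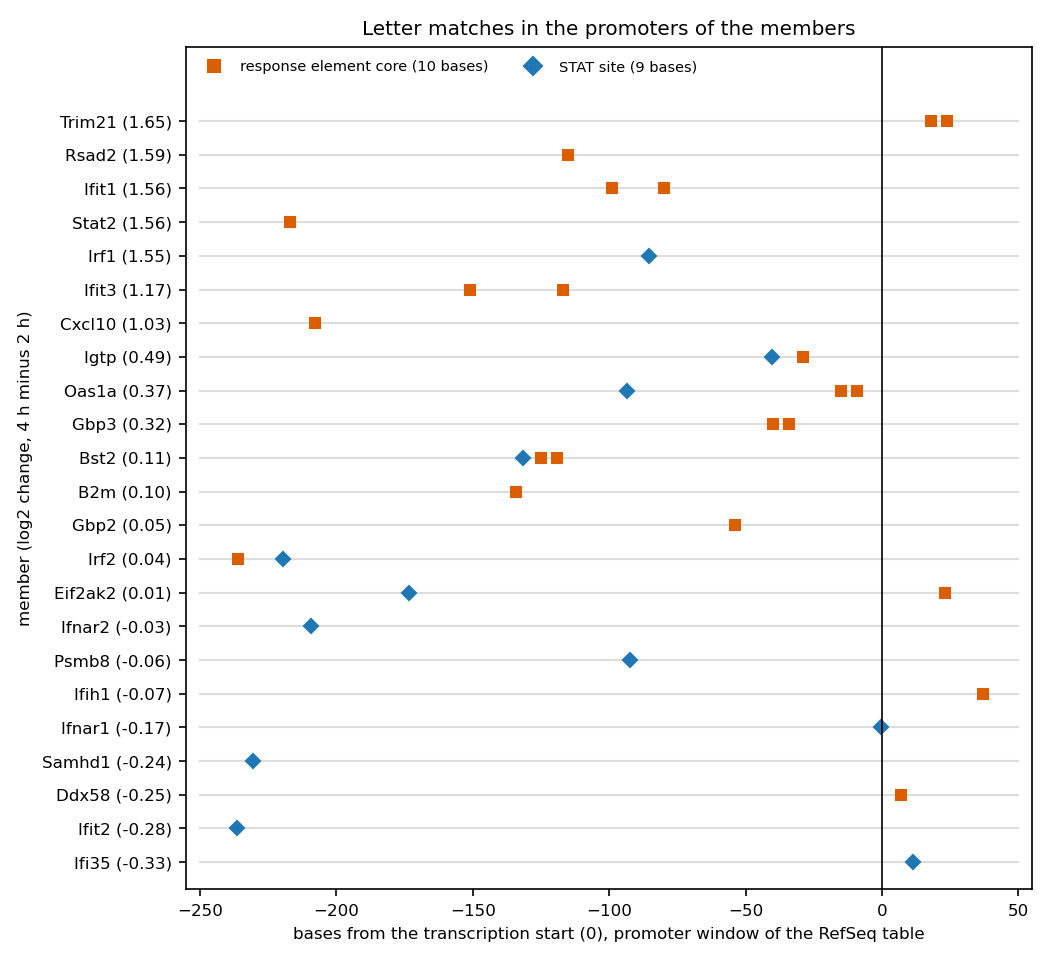
Places of the response element core (squares) and the STAT site (diamonds) in the promoter windows of the members that hold either, by distance in bases from the transcription start. Members run from the largest rise between 2 h and 4 h, Trim21 (1.65 on the log2 scale), to the lowest value, Ifi35 (-0.33), and both kinds of match stand among high and low members.

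Of the receptor chains 1 was called, as a fall and only at 4 h, when 18.5% of all genes fell. Ifnar1, which docks the kinase Tyk2, had a relative signal of 3.20 and 2.98 in untreated cells, 2.86 and 2.82 at 2 h and 2.56 and 2.49 at 4 h. Relative signal is the processed signal as a multiple of the array's 75th percentile, and it is set only against other arrays, not against other genes. Ifnar1 fell at 4 h by 0.29 on the log2 scale (SE 0.06, n = 2 arrays per group, adjusted p = 0.0217), and its -0.12 at 2 h did not pass. The call at 4 h was lost under 8 of 18 alternatives, with no change of sign. Ifnar2, the high-affinity chain, had 2.42 and 2.28 in untreated cells, 2.70 and 2.57 at 2 h and 2.63 and 2.51 at 4 h, with both treated groups above the untreated one and no call. With the replicate number as a block, its 0.16 at 2 h had an adjusted p of 0.0342. A second Ifnar2 probe went the other way, at -0.52 at 2 h (adjusted p = 0.0174) and 0.73 between 2 h and 4 h (adjusted p = 0.00926), so the gene has no single course here. The 2 genes lie on chromosome 16, with 1 gene, Il10rb, between them.

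All 6 transcription factors were called at both times. At 2 h 5 fell and 1 rose, beside 15.3% and 23.8% of all genes, and at 4 h 4 rose and 2 fell, beside 24.7% and 18.5%. Stat2, the signal transducer of the type I response, had 2.28 and 2.22 in untreated cells, 0.969 and 0.924 at 2 h and 2.80 and 2.77 at 4 h. Irf1, an activator that binds response elements, had 6.62 and 6.50, then 2.88 and 2.79, then 8.49 and 8.09. Irf9, the DNA-binding subunit of the Stat2 complex, had 1.77 and 1.76, then 1.10 and 1.02, then 2.34 and 2.31. In these 3 genes both arrays of every group were apart from those of the other groups, lowest at 2 h and highest at 4 h. Stat2 fell 2.38-fold at 2 h (log2 -1.25 ± 0.06 SE, adjusted p = 0.00039) and Irf1 fell 2.31-fold (log2 -1.21 ± 0.06, adjusted p = 0.000439), while Irf9 changed by -0.74 ± 0.06 (adjusted p = 0.00164). Between 2 h and 4 h they rose by 1.56, 1.55 and 1.14 (adjusted p = 0.00165, 0.00165 and 0.0018). At 4 h they were above untreated cells by 0.31, 0.34 and 0.40 (adjusted p = 0.014, 0.0114 and 0.0086). That call at 4 h was lost under 9 of 18 alternatives for Stat2, 8 of 18 for Irf1 and 6 of 17 for Irf9, with no change of sign. Second probes of Irf1 and Irf9 changed by -1.17 and -1.01 at 2 h.

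Irf3 and Irf7 were lower than in untreated cells at both times. Irf3, a latent factor that switches on the interferon beta gene, had 9.61 and 8.32 in untreated cells, 5.97 and 5.22 at 2 h and 5.44 and 4.50 at 4 h. Irf7, its inducible relative, had 0.190 and 0.183, then 0.117 and 0.106, then 0.140 and 0.123. Every treated array stood below both untreated ones. Irf3 fell by 0.68 at 2 h (SE 0.14, adjusted p = 0.0205) and by 0.85 at 4 h (adjusted p = 0.0101). Irf7 fell by 0.74 (SE 0.09, adjusted p = 0.00533) and by 0.51 (adjusted p = 0.0141). A second Irf3 probe had -0.17 and -0.27 and was not called, the 2 h call of Irf3 was lost under 6 of 18 alternatives, and the 4 h value of Irf7 was 0.06 with normexp and the 75th percentile, and -0.38 with normexp and quantile normalization (adjusted p = 0.0044). Irf2, which competes with Irf1 at response elements, rose by 0.37 at 2 h (adjusted p = 0.00997) and 0.41 at 4 h (adjusted p = 0.00683). With spike-in scaling the 2 h value of Irf2 was -0.08. Its signal was 0.194 and 0.200 in untreated cells, 0.251 and 0.258 at 2 h and 0.256 and 0.267 at 4 h.

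**Figure D3:**
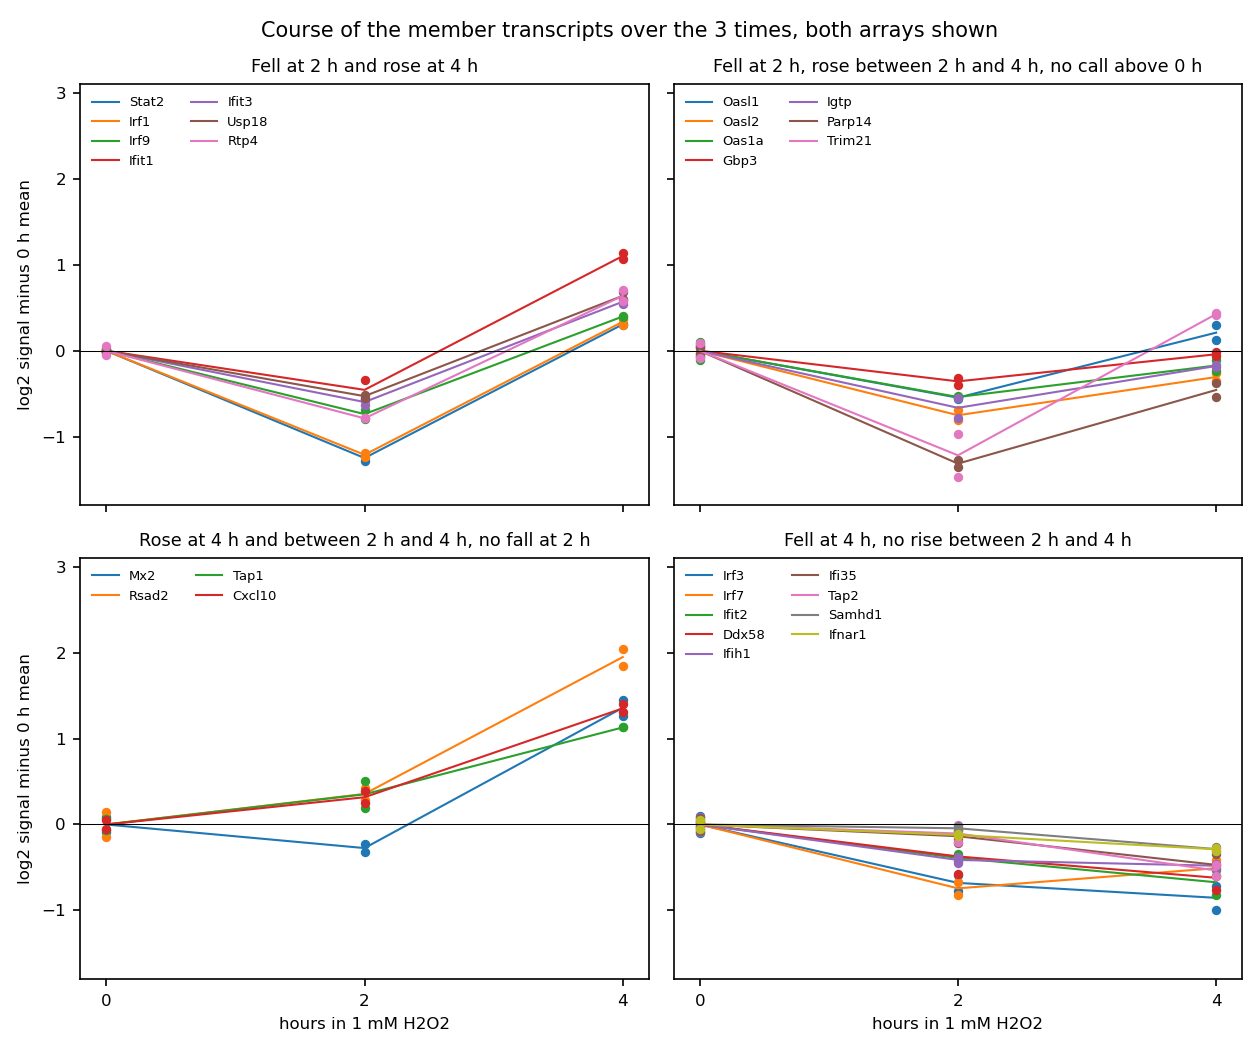
Log2 signal of each array (points) and group mean (lines), relative to the 0 h mean, over hours in 1 mM H2O2, for members grouped by their calls. Stat2 and Irf1 drop by 1.25 and 1.21 at 2 h and end 0.31 and 0.34 above 0 h, Rsad2 ends 1.95 above it, and Irf3 ends 0.85 below.

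Of the 3 sensors of viral RNA 1 fell and 0 rose between 2 h and 4 h (limma, the same at an unadjusted p under 0.05). Their values were -0.07 to -0.39, and 16.5% of all genes fell and 13.4% rose between these times. Ifih1, which detects long double-stranded RNA, fell by 0.41 at 2 h (adjusted p = 0.0186) and by 0.48 at 4 h (adjusted p = 0.0113). The 2 h call of Ifih1 was lost under 5 of 18 alternatives and its 4 h call under 2. Ddx58, which detects RNA with a 5′ triphosphate, had 0.933 and 0.911 in untreated cells, 0.819 and 0.620 at 2 h and 0.543 and 0.663 at 4 h, with its 2 h and 4 h arrays overlapping. It fell at 4 h by 0.62 (SE 0.17, adjusted p = 0.0415), and with the replicate block that call was lost (adjusted p = 0.0677). The call was lost under 7 of 18 alternatives. Another Ddx58 probe fell at 2 h, at -0.47 (adjusted p = 0.0358), and had -0.29 at 4 h without a call. A dimmer probe had -0.26 and -0.41 and was not called, so the timing of the fall differs between probes. Dhx58, a regulator of the other two, rose by 0.59 at 2 h (SE 0.07, adjusted p = 0.00482) and fell by 0.39 between 2 h and 4 h (adjusted p = 0.0193). Its signal was 0.206 and 0.189 in untreated cells, 0.289 and 0.307 at 2 h and 0.230 and 0.223 at 4 h. The rise of Dhx58 at 2 h was lost with no scaling (log2 0.26), with spike-in scaling (0.14) and with normexp and the 75th percentile (0.50).

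Of the 14 listed antiviral effectors 12 were tested. At 2 h 6 fell and 0 rose by limma (9 and 1 at an unadjusted p under 0.05), and between 2 h and 4 h 8 rose and 0 fell (8 and 1 unadjusted), with a median of 0.60. At 4 h 4 stood above untreated cells and 3 below. Of all genes 15.3% fell and 23.8% rose at 2 h, and 13.4% rose and 16.5% fell between 2 h and 4 h. At 4 h the shares were 24.7% above untreated cells and 18.5% below. Rsad2, or viperin, an enzyme that makes a chain-terminating nucleotide, had 0.0459 and 0.0559 in untreated cells, 0.0682 and 0.0616 at 2 h and 0.182 and 0.209 at 4 h. Mx2, a dynamin-like GTPase, had 0.144 and 0.129, then 0.116 and 0.109, then 0.372 and 0.328. Both 4 h arrays were above all others for each of these genes. Rsad2 rose 3.86-fold at 4 h (log2 1.95 ± 0.13 SE, adjusted p = 0.0011), and Mx2 rose 2.57-fold (log2 1.36 ± 0.10, adjusted p = 0.00128). At 2 h Rsad2 had 0.36 and was not called, and Mx2 had -0.27, which passed with the replicate block (adjusted p = 0.0176).

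The Ifit genes, which encode RNA-binding proteins of the antiviral state, took 2 courses. Ifit1 had 0.231 and 0.223 in untreated cells, 0.153 and 0.180 at 2 h and 0.477 and 0.499 at 4 h. Ifit3 had 0.900 and 0.904, then 0.581 and 0.612, then 1.31 and 1.37. Ifit2 had 0.557 and 0.539, then 0.430 and 0.406, then 0.380 and 0.310. The first pair dipped at 2 h and ended above untreated cells, and Ifit2 was lowest at 4 h. Ifit1 fell by 0.46 at 2 h (adjusted p = 0.0223) and rose by 1.10 at 4 h (SE 0.10, adjusted p = 0.00196), Ifit3 fell by 0.60 (adjusted p = 0.0027) and rose by 0.57 (adjusted p = 0.00305), and Ifit2 fell at 4 h by 0.67 (SE 0.11, adjusted p = 0.0109). For Ifit2 the 2 h value was -0.39, which passed with the replicate block (adjusted p = 0.0292). The 2 h call of Ifit1 was lost under 5 of 18 alternatives. Ifit2 and Ifit3 are neighbours on chromosome 19, with 3 genes between Ifit3 and Ifit1, among them Ifit3b, and whether probes of one gene read a family member was not tested.

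The tested genes of the oligoadenylate synthetase family, and Trim21, fell at 2 h and rose between 2 h and 4 h. Oasl1, which represses Irf7 translation, had 0.106 and 0.118 in untreated cells, 0.0772 and 0.0761 at 2 h and 0.137 and 0.122 at 4 h. Oasl2 had 0.526 and 0.573, then 0.313 and 0.340, then 0.429 and 0.460, and Oas1a, whose product activates RNase L, had 0.252 and 0.218, then 0.163 and 0.160, then 0.217 and 0.200. In all 3 the arrays at 2 h were the lowest. The falls at 2 h were 0.55, 0.75 and 0.54 on the log2 scale (adjusted p = 0.0112, 0.00348 and 0.0139), and the genes rose between 2 h and 4 h by 0.76, 0.45 and 0.37 (adjusted p = 0.00645, 0.019 and 0.0475). The rise of Oas1a was lost under 10 of 18 alternatives and that of Oasl2 under 7. Oasl2 was still below untreated cells at 4 h, by 0.31 (adjusted p = 0.0387), a call lost under 8 of 18 alternatives. Trim21, a cytosolic antibody receptor, had 0.167 and 0.188, then 0.0640 and 0.0908, then 0.237 and 0.240. Trim21 fell 2.33-fold at 2 h (log2 -1.22 ± 0.18, adjusted p = 0.00875) and rose by 1.65 ± 0.18 between 2 h and 4 h (adjusted p = 0.00553).

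Of the other effectors, Samhd1, which depletes nucleotides, fell by 0.29 at 4 h (adjusted p = 0.0253), a call lost under 9 of 18 alternatives. With the replicate block its -0.24 between 2 h and 4 h passed (adjusted p = 0.0475). A second Samhd1 probe was above background on 2 of the 6 arrays only and gives no exact change, and with the mean of both probes the value between 2 h and 4 h was 1.02 (adjusted p = 0.0125). Eif2ak2, the kinase that halts translation on sensing double-stranded RNA, had -0.29 at 2 h and -0.27 at 4 h without a call, and passed with the replicate block at both times (adjusted p = 0.0382 and 0.0412). Bst2, which tethers budding virions to the cell, had 0.04 at 2 h and 0.16 at 4 h and was not called. Mx1, the other Mx GTPase, was above background on no array. Oas2 was above background on 1 of 6 arrays, an untreated one.

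The 4 interferon-induced GTPases act on the membranes of vacuoles that hold pathogens. They were not called at 4 h by limma, and 0 had an unadjusted p under 0.05. At that time 24.7% of all genes rose and 18.5% fell. Igtp had 1.09 and 1.18 in untreated cells, 0.775 and 0.660 at 2 h and 0.992 and 1.01 at 4 h, so that the 2 h arrays were apart from the rest. It fell by 0.66 at 2 h (SE 0.10, adjusted p = 0.00884) and rose by 0.49 between the times (adjusted p = 0.0256). Gbp3, the gene to which the accession of a probe named Gbp4 in the files belongs, fell by 0.36 at 2 h (adjusted p = 0.016). It rose by 0.32 between the times (adjusted p = 0.0277). Of its calls the fall was lost under 6 of 17 alternatives and the rise under 9. Gbp2, its neighbour on chromosome 3 with Gbp2b between, had -0.11 at 2 h and -0.06 at 4 h and no call. Ifi47 was not well above background on either 4 h array and was not called at 4 h (adjusted p = 0.268). Its signal was 0.042 and 0.041 in untreated cells and 0.040 and 0.022 at 4 h. The "at least" fold from group means was 1.155 lower at 4 h than in untreated cells. A fall is not established by it, as the log2 value ran from -0.92 to 0.75 under the alternatives.

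None of the 6 antigen processing genes was called at 2 h, when 23.8% of all genes rose and 15.3% fell. Their values at 2 h ran between -0.11 and 0.35, and 4 were higher at an unadjusted p under 0.05 in limma. At 4 h 3 rose and 1 fell, beside 24.7% and 18.5% of all genes. Tap1 and Tap2 form the transporter that carries peptides into the endoplasmic reticulum. Tap1 had 0.260 and 0.283 in untreated cells, 0.386 and 0.310 at 2 h and 0.594 and 0.594 at 4 h. Tap2 had 0.283 and 0.299, then 0.252 and 0.289, then 0.192 and 0.210. The 2 chains of the transporter thus lay on opposite sides of untreated cells at 4 h, with no overlap. Tap1 rose 2.19-fold at 4 h (log2 1.13 ± 0.12 SE, adjusted p = 0.00335) and Tap2 fell by 0.54 ± 0.10 (adjusted p = 0.0132).

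The immunoproteasome subunits Psmb8, Psmb9 and Psmb10 take the places of Psmb5, Psmb6 and Psmb7 of the constitutive proteasome in cells that make peptides for display. Psmb9 had 0.263 and 0.240 in untreated cells, 0.335 and 0.303 at 2 h and 0.375 and 0.313 at 4 h, and rose at 4 h by 0.45 (SE 0.12, adjusted p = 0.0373). Psmb8 had 0.742 and 0.671, then 0.824 and 0.837, then 0.808 and 0.783, and Psmb10 had 7.56 and 6.93, then 8.18 and 8.05, then 7.61 and 6.64, with no call in either. Of the constitutive subunits, Psmb5 had 0.26 at 2 h and 0.13 at 4 h, Psmb6 0.34 and 0.28, and Psmb7 rose by 0.42 and 0.44 (adjusted p = 0.0193 and 0.0147). With the replicate block the 2 h values of Psmb8 (0.23) and Psmb9 (0.34) passed (adjusted p = 0.042 and 0.0161). B2m, the light chain of class I molecules, had 11.2 and 11.3 in untreated cells, 13.5 and 14.0 at 2 h and 13.7 and 15.7 at 4 h. It rose at 4 h by 0.39 (SE 0.08, adjusted p = 0.0213), and its 0.29 at 2 h passed with the replicate block (adjusted p = 0.0328). Another B2m probe had -0.34 at 2 h (adjusted p = 0.0177) and 0.68 at 4 h (adjusted p = 0.00265), unlike the brightest one at 2 h. The rises of Psmb9 and of B2m at 4 h were each lost under 11 of 18 alternatives.

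Psmb9, Tap1, Psmb8 and Tap2 lie next to one another on chromosome 17. Tap1 and Psmb9 are read in opposite directions from starts 226 bases apart, and the 225 bases between the starts, which lie in the promoter windows of both, are printed here because the 2 genes rose by different amounts, 1.13 and 0.45 at 4 h. Neither motif occurs in them.
Tap1 and Psmb9 (chr17:34187331-34187555, plus strand, GRCm38.p6): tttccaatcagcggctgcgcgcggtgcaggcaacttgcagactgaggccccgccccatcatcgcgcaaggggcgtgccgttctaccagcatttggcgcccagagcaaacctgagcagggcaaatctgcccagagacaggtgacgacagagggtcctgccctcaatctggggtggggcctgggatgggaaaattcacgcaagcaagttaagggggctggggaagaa

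**Figure D4:**
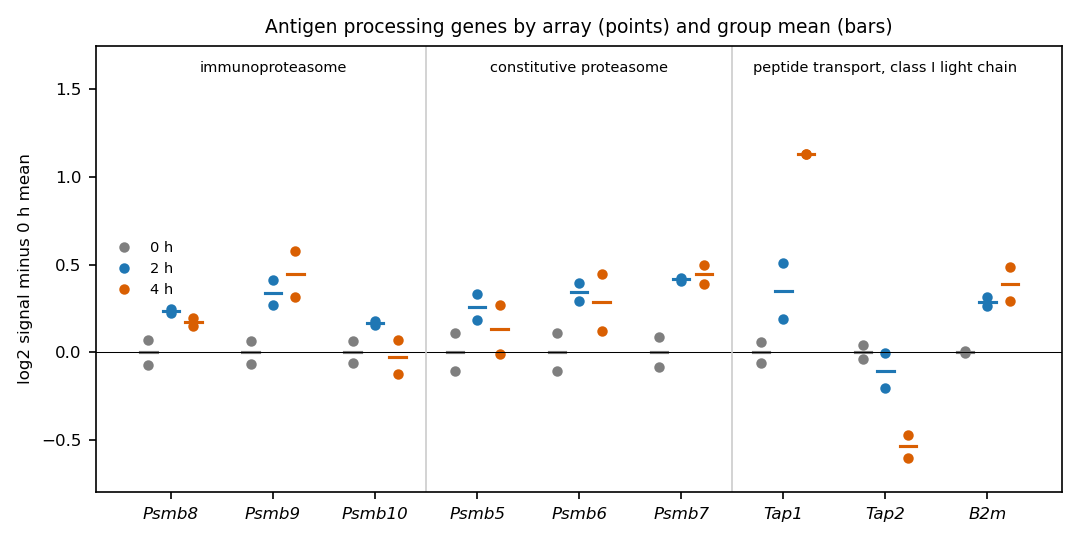
Log2 signal of each array (points) relative to the 0 h mean, with the group mean as a bar, for 3 immunoproteasome subunits, 3 constitutive subunits, Tap1, Tap2 and B2m, at 0 h, 2 h and 4 h. The 4 h mean of Tap1 stands 1.13 above 0 h and that of Tap2 0.54 below it. The 2 h and 4 h means of the proteasome genes lie between -0.03 and 0.45, with single arrays outside this range.

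Among the other induced genes, Cxcl10, a chemokine that attracts T cells, rose at both times. It had 0.245 and 0.265 in untreated cells, 0.302 and 0.333 at 2 h and 0.629 and 0.672 at 4 h, so that each group lay above the one before. The rise was 0.32 at 2 h (SE 0.08, adjusted p = 0.0403) and 1.35 at 4 h (2.55-fold, adjusted p = 0.000881). With no scaling the 2 h value was -0.02 and with spike-in scaling it was -0.13, while the call at 4 h was kept under all 18 alternatives. Usp18, a protease that removes Isg15 from proteins and damps receptor signalling, had 0.642 and 0.643, then 0.451 and 0.440, then 1.04 and 0.968. Rtp4, a receptor transporter protein, had 1.85 and 1.71, then 1.03 and 1.03, then 2.89 and 2.65. Both dipped at 2 h and ended above untreated cells without overlap. Usp18 fell by 0.53 at 2 h (adjusted p = 0.00402) and rose by 0.64 at 4 h (adjusted p = 0.00239), and Rtp4 fell by 0.79 (adjusted p = 0.00224) and rose by 0.64 (adjusted p = 0.00396). Parp14, a mono-ADP-ribosyltransferase, had 0.638 and 0.664, then 0.254 and 0.269, then 0.449 and 0.501, and so came only part of the way back. It fell 2.49-fold at 2 h (log2 -1.31 ± 0.08, adjusted p = 0.000742), and at 4 h it was still lower by 0.46 (adjusted p = 0.012), a call lost under 3 of 18 alternatives, and another Parp14 probe had 0.21 at 4 h without a call. Ifi35, a leucine zipper protein, fell by 0.47 at 4 h (adjusted p = 0.0357), a call lost under 7 of 18 alternatives. Ifi44 had -0.42 at 2 h and 0.03 at 4 h with no call, though a second, dimmer probe had 1.09 at 4 h (adjusted p = 0.0103).

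**Figure D5:**
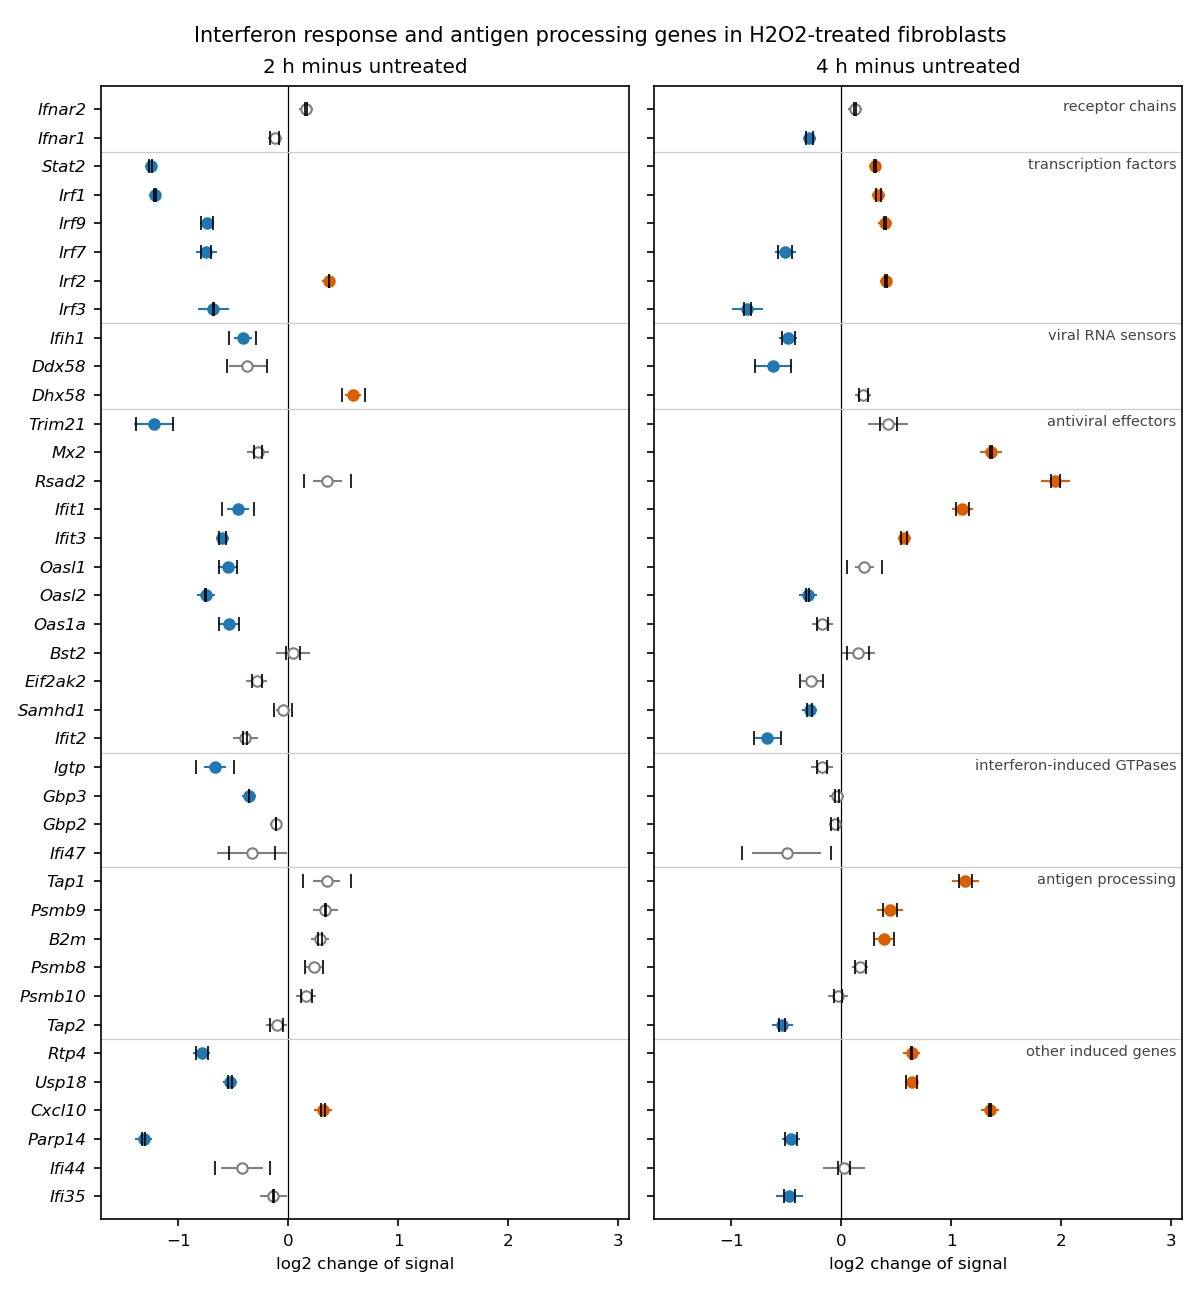
Log2 change of the 39 tested members at 2 h and 4 h against untreated cells, by role. Filled points passed the test (blue fell, orange rose), open points did not, bars are the SE and ticks the change within each slide. At 2 h 17 are blue and 3 orange, and at 4 h 11 are blue and 14 orange.

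Other genes of the pathway were read from a list of 69 that holds no member, of which 58 were tested. At 2 h 9 rose and 14 fell, with a median of -0.01, at 4 h 13 rose and 9 fell, with a median of 0.09, and between the times 14 rose and 5 fell, with a median of 0.02. Of all genes 23.8% rose and 15.3% fell at 2 h, 24.7% and 18.5% at 4 h, and 13.4% and 16.5% between the times. The medians of all genes were 0.12, 0.07 and -0.08. Isg20, an RNA exonuclease, rose by 3.72 at 2 h and 4.08 at 4 h (adjusted p = 0.000116 and 0.000126). Zbp1, a sensor of Z-form nucleic acids, rose by 2.05 and 1.54, and Ifitm1, which blocks viral entry, by 1.16 and 1.06. Ciita, the master activator of class II genes, rose by 3.51 and 2.68, from a signal above background on 1 of the 2 untreated arrays. The falls at 2 h were led by Trim34, a TRIM family member (-1.29), Socs1, a feedback inhibitor of cytokine signalling (-1.13), Irgm1, a GTPase related to Igtp (-0.70), and Sp100, a nuclear body protein (-0.67). Socs1 had 2.90 and 2.70 in untreated cells, 1.27 and 1.29 at 2 h and 2.80 and 2.63 at 4 h, and Irgm1 had 1.24 and 1.25, then 0.766 and 0.765, then 1.66 and 1.70. Both were lowest at 2 h. At 4 h the largest measured falls were those of Herc6, a ligase for Isg15 (-1.73), Sp100 (-0.73), both above background on 1 of the 2 arrays at 4 h and so less exact, Uba7, the enzyme that activates Isg15 (-0.66), and Ifngr1, a chain of the interferon gamma receptor (-0.56). Ifnb1, Ifna4 and Ifng, which encode interferons themselves, were above background on no array, so no transcript of these 3 was measured beside the changes.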

How the data were processed

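The deposited scanner files hold fluorescence intensity per spot, and the deposited value table holds intensity too, equal to their processed signal within 5e-04. Per the file headers, the signals were extracted with Feature Extraction 9.5.3.1 (protocol GE1-v5_95_Feb07), which subtracts background. Per the labels, RNA was labelled with Cy3. The sources used here do not give the genome build of the probes.

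From the deposited intensity, log2 of the processed signal minus the 75th percentile of each array over 43379 non-control spots was computed, without flagged spots (99 to 149 per array). That percentile was 826 and 883 in untreated cells, 675 and 677 at 2 h, and 674 and 754 at 4 h. With 2 arrays per group, their number limits the precision. Names came from the RefSeq table through the accession (22951 probes), the symbol (6659) or an older symbol (3109), and otherwise from the file (8455), so that Irf9 is the probe named Isgf3g and Dhx58 that named D11Lgp2e. The brightest of a gene's probes stood for it (17 members had several). Genes that both arrays of 1 or more groups showed well above background went into limma 3.58.1 (R 4.3.3) on all 6 arrays (3 residual and 1.64 prior degrees of freedom), adjusted over 17185 genes. An "at least" fold sets the bright group's mean against the dim arrays' own value or their lowest signal above background, whichever is higher. The script was tested on simulated data. Replicate numbers match slides, and deviations of same-numbered arrays from group means correlated at 0.243, 0.2 and 0.24, so they pair the arrays, and a replicate block was an alternative.

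The members and lists were chosen with earlier results of these data known. All members are named. Values per array are given for members that were called with a log2 change of at least 0.5 and for 13 chosen by name (Ifnar1, Ifnar2, Stat2, Irf1, Irf3, Irf9, B2m, Psmb8, Psmb9, Psmb10, Tap1, Tap2 and Cxcl10), and 4 genes each way and time from the pathway list. Promoters are from RefSeq.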

Additional observations from a re-analysis of the deposited data

Results flagged for a closer look

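Signal differed between the 2 times in H2O2, by the test of 4 h against 2 h, in 20 members, and time in culture and H2O2 cannot be told apart. It was higher at 4 h in 18 and lower in 2, beside 13.4% and 16.5% of all genes. The differences on the log2 scale were 1.65 for Trim21, 1.63 for Mx2, 1.59 for Rsad2, 1.56 for Ifit1, 1.56 for Stat2, 1.55 for Irf1, 1.43 for Rtp4, 1.17 for Ifit3, 1.17 for Usp18, 1.14 for Irf9 and 1.03 for Cxcl10. They were smaller for Parp14 (0.86), Tap1 (0.78), Oasl1 (0.76), Igtp (0.49), Oasl2 (0.45), Oas1a (0.37) and Gbp3 (0.32). Signal was lower at 4 h for Tap2 (-0.43) and Dhx58 (-0.39). The call was lost under 10 of 18 alternatives for Tap2 and for Oas1a, 9 of 17 for Gbp3 and 8 of 17 for Dhx58. It was lost under 7 of 18 for Oasl2, 5 for Igtp, 2 for Tap1 and 1 for Oasl1. No group had 4 arrays, so single arrays were not tested as outliers.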

How the results depend on the processing

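Of the calls, 7 of 17 falls at 2 h (Parp14, Stat2, Irf1, Rtp4, Irf9, Igtp, Ifit3), 7 of 14 rises at 4 h (Rsad2, Mx2, Cxcl10, Tap1, Ifit1, Rtp4, Usp18) and 12 of 18 rises between the times passed under each of the 18 alternatives run on single genes (17 where the file's names were used and did not hold the gene), and 0 of 3 rises at 2 h, 0 of 11 falls at 4 h and 0 of 2 falls between the times did. The number of members that fell at 2 h was 17, with spike-in scaling 30 and with normexp and the 75th percentile 7. The shares of all genes that fell were 15.3%, 53.5% and 4.32% in the same order. Rises at 2 h numbered 3, with median centring 1, with no scaling, spike-in scaling or normexp and the 75th percentile 0, with only genes above background on all arrays 5, with the replicate block 7, and with a log2 change of at least 0.5 only 1. Falls at 4 h numbered 11, with spike-in scaling 17, with normexp and the 75th percentile 1 (12 with normexp and quantile), and with no filter on dim probes or a change of at least 0.5 they numbered 5. Rises at 4 h numbered 14, with median centring 9, no scaling 7, spike-in scaling 8, normexp and the 75th percentile 9 (12 with normexp and quantile) and a change of at least 0.5 they numbered 8. Falls between 2 h and 4 h numbered 2, with median centring, no scaling or file names alone 1, and with the replicate block 4. They numbered 0 with spike-in scaling, normexp and the 75th percentile, no filter or a change of at least 0.5. Over the settings named for each, the share of all genes ran from 4.73% to 33.6% for rises at 2 h. It ran from 4.95% to 36% for falls at 4 h, 8.81% to 24.7% for rises at 4 h and 1.43% to 23.4% for falls between the times. With 0 calls, an unadjusted limma p under 0.05 gave 0 to 4 rises at 2 h and 0 to 5 falls between the times. Leaving out 1 array at a time gave 11 to 19 falls and 1 to 3 rises at 2 h, 3 to 7 falls and 9 to 14 rises at 4 h, and 0 to 1 falls and 13 to 17 rises between the times. At 2 h the falls were 11 without 2 h replicate 1, the rises 1 without untreated replicate 1 or 2, and at 4 h the rises were 9 without either. Falls at 4 h, and those between the times, dropped by over 1.5 times whichever of the 6 arrays was left out. Direction turned for Irf7 at 4 h (0.062, normexp and the 75th percentile), Irf2 (-0.084), Psmb8 (-0.22), Psmb10 (-0.29) and Ifnar2 (-0.29) at 2 h with spike-in scaling, Cxcl10 at 2 h (-0.020 with no scaling, -0.13 with spike-in scaling), and, averaging all probes per gene, Ifnar2 (0.35) and Samhd1 (1.02) between the times. The cause was not tested. Slide and replicate number coincide, so a slide block gives no further value, and the replicate block changed no call beyond those named with the genes, with those of Irf7 (0.24 between the times, adjusted p = 0.0384) and Ifi35 (-0.33, adjusted p = 0.0178). Ifi47, Oas2 and Mx1 lay at or under background on some or all arrays.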
